A study of Homo sapiens with 6 samples.

Results

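Sprouty and SPRED genes encode inhibitors of signalling from receptor tyrosine kinases through RAS to the kinase ERK. The human family was taken as 7 genes, SPRY1, SPRY2, SPRY3, SPRY4, SPRED1, SPRED2 and SPRED3, by their symbols in a deposited table of 58735 genes, and all 7 were in it. Sprouty genes are themselves switched on by growth factor signalling and act as feedback brakes. Sprouty proteins bind adaptors, RAF and the ubiquitin ligase CBL, whereas SPRED proteins bind membranes and bring neurofibromin, the product of NF1, to RAS, which neurofibromin inactivates. Loss of SPRED1 or NF1 in the germ line causes related human syndromes of raised RAS signalling.

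The 6 RNA-seq libraries were made from cells that carry the label T24, the name of a human bladder carcinoma line known for an activating HRAS mutation, which gene totals cannot check. In 3 libraries, labelled sgNC, the cells carried an empty vector as the negative control, and the other 3 libraries are labelled sgOTUD1 and given as OTUD1 knockout. OTUD1 encodes a deubiquitinase, and the study compares its knockout with the control. Labels state neither guide sequences, nor whether the cells were a clone or a pool, nor whether the replicates were separate cultures, so the spread behind each p-value is one between libraries and could be technical in part or whole.

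Libraries held 16697370 to 17191933 reads in genes. The targeted gene, OTUD1, was at 13.9, 15.6 and 14.6 FPKM (fragments per kilobase of exon, over a divisor for each library) in sgNC. It was at 16.2, 17.9 and 17.1 FPKM in the libraries labelled sgOTUD1, so it was not lower where the label says knockout. Gene totals do not show whether its coding sequence was altered. The FPKM divisor, recovered from the values, was 17490559 to 17980830 reads in sgNC, above the reads in genes of each library. In the libraries labelled sgOTUD1 it was 16237967 to 16654341, below the reads in genes of each. Deposited FPKM thus put sgOTUD1 higher against sgNC than scaling by reads in genes would. Fold changes here are differences in log2(FPKM + 1), which understate those of low genes, and a gene was called at a limma adjusted p under 0.05 over all genes tested. Alternatives rescaled the libraries (median-ratio rescaling, or TPM, which sets each library to 1 total) or used limma-voom on reads recovered from FPKM. Others removed a trend with exon length in each library's deviation from the gene means, from the log2 values (length correction 1) or from FPKM (length correction 2). That trend included a constant, so both length corrections also recentred each library. The call of OTUD1 (log2 fold change 0.20, limma adjusted p = 0.0167) ended without sgNC replicate 1 or sgOTUD1 replicate 2, with both rescalings and with both length corrections. In sgNC the epithelial genes CDH1 and EPCAM were at 69.1 and 68.1 FPKM, the mesenchymal factor ZEB1 was at 0.0456 FPKM and the urothelial gene UPK3A was at 0. Of 17 urothelial and epithelial markers, 12 had a mean of at least 0.5 FPKM over the 6 libraries. The keratins KRT5, KRT14 and KRT19 were at 1190, 707 and 1230 FPKM in sgNC and TP63 at 41.2 FPKM, whereas UPK1A and UPK1B were at 0.0832 and 0.0825 FPKM. Other mesenchymal markers were not near 0, with FN1 at 169 FPKM, VIM at 33.7 FPKM and CDH2 at 2.89 FPKM in sgNC. T24 is usually described as low in CDH1 and high in ZEB1, which the levels of this pair go against, and the line is named here only by its label. Of 13 markers of leukocytes, endothelium and stroma, 3 (PTPRC, COL3A1 and PDGFRB) were at 0 in every library, and the summed level of the 13 was 11 to 11.6 FPKM in sgNC and 6.21 to 6.45 FPKM in sgOTUD1. All 4 that passed the filter (COL1A1, CDH5, CSF1R and ACTA2) were called lower, where 24.7% of all genes tested were. CSF1R passed only through its level in sgNC (1.14 FPKM, against 0.429 FPKM in sgOTUD1). Mitochondrial genes took 4.01% ± 0.179 of reads in sgNC but 2.15% ± 0.0768 in sgOTUD1 (SD, n = 3 each). The part of these markers and of the mitochondrial share in the results was not tested. In RNA from many cells, a change in the share of cells that express a gene and a change in RNA per cell cannot be told apart.

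The 7 genes differ in structure. SPRY1, SPRY2 and SPRY3 each have 1 coding block in GENCODE 29 and SPRY4 has 2, whereas SPRED1 and SPRED3 have 7 and SPRED2 has 10. The Sprouty genes span 5.0 to 16.0 kb and SPRED3 11.2 kb, against 104.9 kb for SPRED1 and 121.8 kb for SPRED2. Coding sequence made up 9.6% (SPRY3) to 31.1% (SPRY2) of the annotated exon length, and the rest is untranslated or noncoding exon. No exon of another annotated gene overlapped an exon of any of the 7.

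All 7 genes had at least 1 start region in RefSeq (build GRCh38.p14, 250 bases before to 50 after a start), with 13 regions in all outside chromosome Y. The regions shown are those with a motif match, and a relation between a match and a change in level was not tested. The regions of SPRY1 and SPRY2 that hold the ETS core CCGGAA, and those of SPRED2 and SPRED3 that hold the AP-1 letters TGANTCA, are printed 5′ to 3′ on the gene's strand, with motif matches in capitals. ETS factors and AP-1 are classes of transcription factor that ERK acts on. SPRY1 is chr4:123398136-123398435 on the plus strand and SPRY2 chr13:80341077-80341376 on the minus strand. SPRED2 is chr2:65366729-65367028 on the minus strand and SPRED3 chr19:38389541-38389840 on the plus strand. The regions of SPRY1, SPRED2 and SPRED3 are at internal starts, inside the GENCODE span of the gene. Each of these genes also has a region nearer its 5′ end, with no motif match. The SPRY2 region lies before the 5′ end of its GENCODE span.
SPRY1: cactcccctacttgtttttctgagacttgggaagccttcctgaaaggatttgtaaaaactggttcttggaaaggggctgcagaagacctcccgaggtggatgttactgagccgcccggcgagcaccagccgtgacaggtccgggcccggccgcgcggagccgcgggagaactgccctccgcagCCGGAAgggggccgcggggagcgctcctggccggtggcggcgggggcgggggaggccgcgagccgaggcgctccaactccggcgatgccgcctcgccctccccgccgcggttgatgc
SPRY2: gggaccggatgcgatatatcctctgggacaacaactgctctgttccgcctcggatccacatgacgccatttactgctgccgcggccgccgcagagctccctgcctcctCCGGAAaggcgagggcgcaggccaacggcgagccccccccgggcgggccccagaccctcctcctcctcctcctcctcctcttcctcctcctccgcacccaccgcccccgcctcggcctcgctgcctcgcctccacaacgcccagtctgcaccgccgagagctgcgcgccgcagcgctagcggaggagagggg
SPRED2: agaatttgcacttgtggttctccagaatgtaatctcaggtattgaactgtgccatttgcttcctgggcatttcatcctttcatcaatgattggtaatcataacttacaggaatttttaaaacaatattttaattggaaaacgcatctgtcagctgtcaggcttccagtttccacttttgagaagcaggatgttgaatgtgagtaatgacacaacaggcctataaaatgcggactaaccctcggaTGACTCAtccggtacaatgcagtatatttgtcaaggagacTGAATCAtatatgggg
SPRED3: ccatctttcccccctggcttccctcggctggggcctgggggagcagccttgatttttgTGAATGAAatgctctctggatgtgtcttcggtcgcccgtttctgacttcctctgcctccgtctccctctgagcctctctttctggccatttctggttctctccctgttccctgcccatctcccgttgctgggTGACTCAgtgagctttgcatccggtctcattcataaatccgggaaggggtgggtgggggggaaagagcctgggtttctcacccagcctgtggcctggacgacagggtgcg

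Counting from the start site, CCGGAA lay at -67 in SPRY1 and at -142 in SPRY2, and 17.2% of all 35116 regions hold it on either strand. TGANTCA lay at -6 and 35 in the SPRED2 region and at -60 in that of SPRED3, both internal, against 7.71% of all regions. The Capicua letters TGAATGAA lay at -192 in SPRED3, against 1.65% of all regions. Capicua, the product of CIC, represses genes that ERK switches on. The search also covered TGAATGGA (1.03% of all regions), the CRE letters TGACGTCA (1.85%) and the heat shock element core GAANNTTC (6.77%), on both strands, with no match in the 13 regions, and no matches overlapped each other. The other 9 regions, among them those of SPRED1, SPRY3 and SPRY4, held none of these letters. Which start these cells use cannot be read from gene totals.

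SPRY1 and SPRY2 were higher, and all 3 SPRED transcripts lower, in the libraries labelled sgOTUD1. SPRY1 was 1.96-fold higher and SPRY2 1.31-fold higher, while SPRED1 was at 0.686, SPRED2 at 0.649 and SPRED3 at 0.562 of the sgNC mean. SPRY4 was 4.69-fold higher, from few reads, and SPRY3 was near 0 throughout. Of the 7 genes, 5 passed the filter of a mean of at least 0.5 FPKM over the 6 libraries, and SPRED3 passed only through its level in sgNC. Of the other 4 past the filter, SPRY1 and SPRY2 were called higher and SPRED1 and SPRED2 lower, where 55.9% of the 14658 genes tested were called, 31.2% higher and 24.7% lower. Fitted without a filter, 3 of the 7 members were called higher and 3 lower, where 24.7% of 30422 genes were called, 13.4% higher and 11.2% lower, the genes added having a mean under 0.5 FPKM. These counts show nothing particular to the members. For 64% of the genes tested, every library of 1 group lay above every library of the other.

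**Figure D1:**
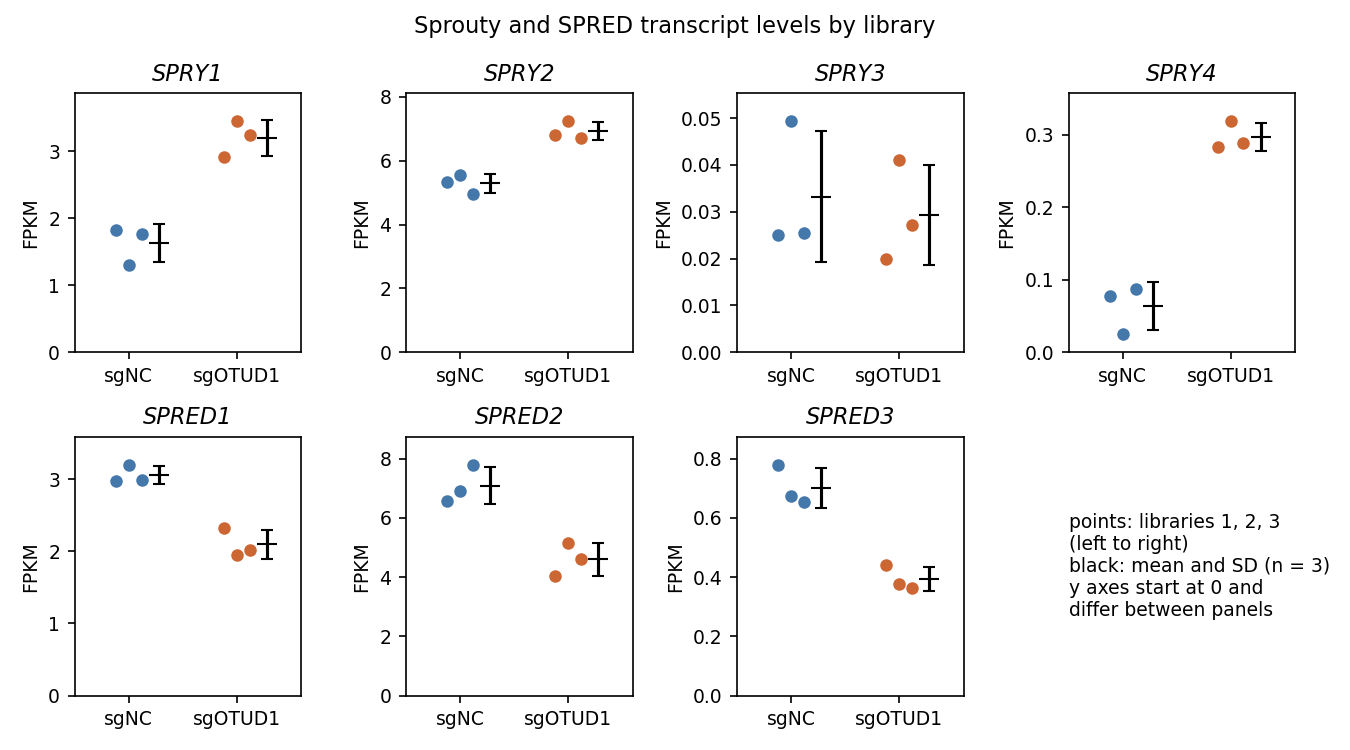
FPKM of each of the 7 genes in the 3 sgNC libraries (blue) and the 3 libraries labelled sgOTUD1 (orange), with the mean and SD in black and a y axis from 0 in each panel. The groups overlap in SPRY3 alone; SPRY1, SPRY2 and SPRY4 are higher and SPRED1, SPRED2 and SPRED3 lower on the right.

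SPRY2 (ENSG00000136158, chromosome 13, 80335976 to 80340951, minus strand, hg38) was the most abundant Sprouty transcript. The SPRY2 protein binds CBL through a phosphorylated tyrosine. Its levels were 5.33, 5.57 and 4.97 FPKM in sgNC and 6.82, 7.24 and 6.72 FPKM in the libraries labelled sgOTUD1, from 264 to 357 reads per library. Every library labelled sgOTUD1 was above every sgNC library. The log2 fold change was 0.33 (SE 0.0531, limma adjusted p = 0.00157; two-sided exact permutation p = 0.1, the smallest that 3 against 3 libraries allow). It was 0.16 with length correction 1 and 0.12 with length correction 2, where the call ended (limma adjusted p = 0.132).

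SPRY1 (ENSG00000164056, chromosome 4, 123396795 to 123403760, plus strand) was the less abundant of the Sprouty transcripts past the filter. In mice, Spry1 restrains GDNF and RET signalling in the developing kidney. SPRY1 was at 1.82, 1.31 and 1.76 FPKM in sgNC and at 2.91, 3.45 and 3.24 FPKM in the libraries labelled sgOTUD1, from 93 to 222 reads per library. The lowest of the latter was above the highest sgNC library. The log2 fold change was 0.68 (SE 0.096, limma adjusted p = 0.000892; exact permutation p = 0.1), higher than that of 93.1% of genes tested. It ranged from 0.56 with length correction 2 to 0.98 with limma-voom on the recovered reads, and was called in both.

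SPRY4 (ENSG00000187678, chromosome 5, 142310427 to 142326455, minus strand), which is commonly used as a readout of ERK activity, was below the filter. It had 9, 3 and 10 reads in sgNC and 31, 34 and 31 reads in the libraries labelled sgOTUD1, or 0.0774, 0.0254 and 0.0871 FPKM against 0.284, 0.319 and 0.289 FPKM. The groups did not overlap, with sgNC replicate 2 the lowest. The ratio of summed reads, scaled by the FPKM divisors, was 4.71 (95% exact binomial interval 2.94 to 7.87, counting error only). Fitted without a filter, the log2 fold change of SPRY4 was 0.29 (SE 0.0664, limma adjusted p = 0.0241; exact permutation p = 0.1), which the added 1 FPKM compresses; a pseudocount of 0.1 gave 1.30 and limma-voom 2.32. Without sgNC replicate 2 the limma adjusted p was 0.0511, and without sgOTUD1 replicate 2 it was 0.0545, so either omission ended the call.

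SPRY3 (ENSG00000168939, chromosome X, 155767812 to 155782459, plus strand) lies in a pseudoautosomal region with a copy on chromosome Y, so the placing of its reads is uncertain. It had 3 to 8 reads per library, at 0.0250, 0.0493 and 0.0254 FPKM in sgNC and 0.0200, 0.0410 and 0.0271 FPKM in the libraries labelled sgOTUD1. These overlapped, and the ratio of summed reads, scaled by the FPKM divisors, was 0.878 with an interval of 0.388 to 1.95. Fitted without a filter, SPRY3 was not called (limma adjusted p = 0.877; exact permutation p = 0.7), though length correction 1 moved it to 0.11 with a call (limma adjusted p = 0.0129). That interval, 95% exact binomial, holds counting error only, and ratios within it are compatible with these few reads.

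SPRED2 (ENSG00000198369, chromosome 2, 65310851 to 65432637, minus strand) was the most abundant SPRED transcript. SPRED proteins carry an N-terminal EVH1 domain and a C-terminal Sprouty-related domain. SPRED2 was at 6.58, 6.90 and 7.80 FPKM in sgNC and at 4.04, 5.14 and 4.62 FPKM in the libraries labelled sgOTUD1, from 347 to 703 reads. The highest of the latter was below the lowest sgNC library. It fell by 0.53 on the log2 scale (SE 0.0875, limma adjusted p = 0.00184; exact permutation p = 0.1) and was called under every alternative run, from -0.46 without sgOTUD1 replicate 1 to -0.74 with TPM.

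SPRED1 (ENSG00000166068, chromosome 15, 38252326 to 38357249, plus strand), the member mutated in Legius syndrome, was at 2.98, 3.20 and 2.98 FPKM in sgNC and at 2.32, 1.95 and 2.02 FPKM in the libraries labelled sgOTUD1. With 8260 nt of exon it drew 261 to 475 reads per library. The groups did not overlap. The log2 fold change was -0.39 (SE 0.0661, limma adjusted p = 0.00213; exact permutation p = 0.1), with -0.30 and -0.34 after the length corrections and -0.63 with TPM, all called.

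SPRED3 (ENSG00000188766, chromosome 19, 38388421 to 38399587, plus strand), described as a mainly neural member in mice, was at 0.780, 0.673 and 0.653 FPKM in sgNC and at 0.440, 0.378 and 0.365 FPKM in the libraries labelled sgOTUD1. It drew 67 to 81 reads in sgNC and 35 to 43 in the others, with no overlap. Its fold change on the log2 scale, -0.29 (SE 0.0985, limma adjusted p = 0.0415, or 0.0395 with no filter; exact permutation p = 0.1), lost its call when any 1 of the 6 libraries was left out (adjusted p from 0.0639 to 0.118). It was -0.70 with a pseudocount of 0.1 (limma adjusted p = 0.0616) and -0.82 with limma-voom (adjusted p = 0.00154).

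FPKM divides by exon length, so levels can be set beside each other, as far as the annotated exons are those used. In sgNC the order of levels was SPRED2, SPRY2, SPRED1, SPRY1, SPRED3, SPRY4 and SPRY3. In the libraries labelled sgOTUD1 it was SPRY2, SPRED2, SPRY1, SPRED1, SPRED3, SPRY4 and SPRY3. Neighbours in either order did not overlap over the 3 libraries, except SPRY4 and SPRY3 in sgNC. SPRY2 changed places with SPRED2, and SPRY1 with SPRED1.

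Summed over the 7 genes, the level was 17.6, 17.7 and 18.3 FPKM in sgNC and 16.8, 18.5 and 17.3 FPKM in the libraries labelled sgOTUD1. These sums overlapped at the deposited scaling, which puts sgOTUD1 higher against sgNC than scaling by reads in genes would. Whether they overlap under another scaling was not tested. Their makeup did not overlap. Sprouty transcripts made up 41.2%, 39.2% and 37.4% of the sum in sgNC and 59.6%, 59.7% and 59.5% in the libraries labelled sgOTUD1. Ratios taken within a library do not depend on the scaling between libraries, but they carry any trend with exon length. SPRY2 over SPRED2 was 0.751 ± 0.099 in sgNC and 1.52 ± 0.149 in those labelled sgOTUD1 (SD, n = 3 each), and SPRY1 over SPRED1 was 0.537 ± 0.112 and 1.54 ± 0.264. Within the SPRED genes, SPRED2 over SPRED1 was 2.33 ± 0.25 and 2.22 ± 0.452 and overlapped. Within the Sprouty genes, SPRY2 over SPRY1 was 3.34 ± 0.804 and 2.17 ± 0.149 and did not. No test was made of these sums and ratios, since they were formed with the members' directions known.

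**Figure D2:**
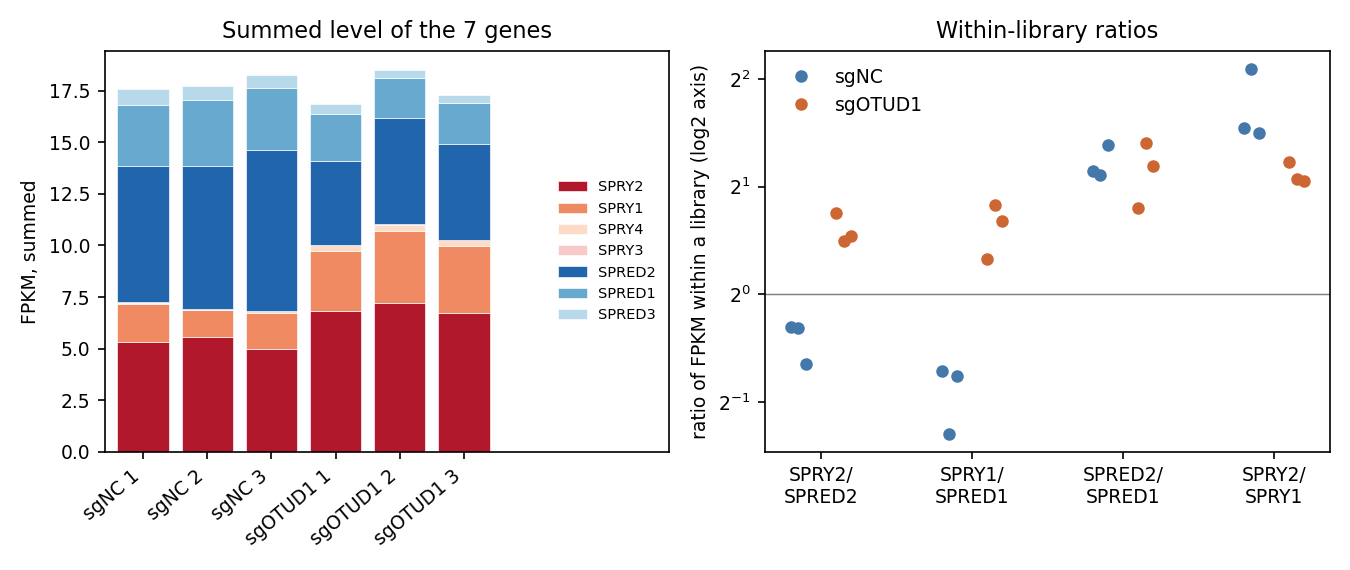
Left, FPKM of the 7 genes stacked by library, Sprouty genes in reds and SPRED genes in blues; right, ratios of 2 genes within each library on a log2 axis, with a line at 1. At the deposited scaling the stacks are of like height, at 16.8 to 18.5 FPKM. SPRY2 over SPRED2 and SPRY1 over SPRED1 lie below 1 in all sgNC libraries and above 1 in all libraries labelled sgOTUD1.

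Fold change went with exon length across the table, and the families differ in length. Over 11372 tested nuclear protein-coding genes, Spearman's rho between log2 fold change and exon length was -0.378, a description across genes, which are not independent. Among genes with over 2000 and up to 4000 nt of exon, which hold SPRY1 (3963 nt) and SPRY2 (3038 nt), the median log2 fold change was 0.18 and 48.7% were called higher. Among those with over 4000 and up to 6000 nt, which hold SPRED2 (5154 nt) and SPRED3 (5864 nt), the median was 0.035 and 23.9% were called lower. Among those with over 6000 and up to 10000 nt, which hold SPRED1, the median was -0.061 and 36.1% were called lower. SPRY2 was the nearest of the 5 members to the median of its class. The part of the length relation in these results was not tested beyond the 2 length corrections. These also recentred each library, with a median log2 fold change over all genes tested of -0.027 (correction 1) and -0.066 (correction 2). Their values thus hold a change of scaling as well as of length.

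**Figure D3:**
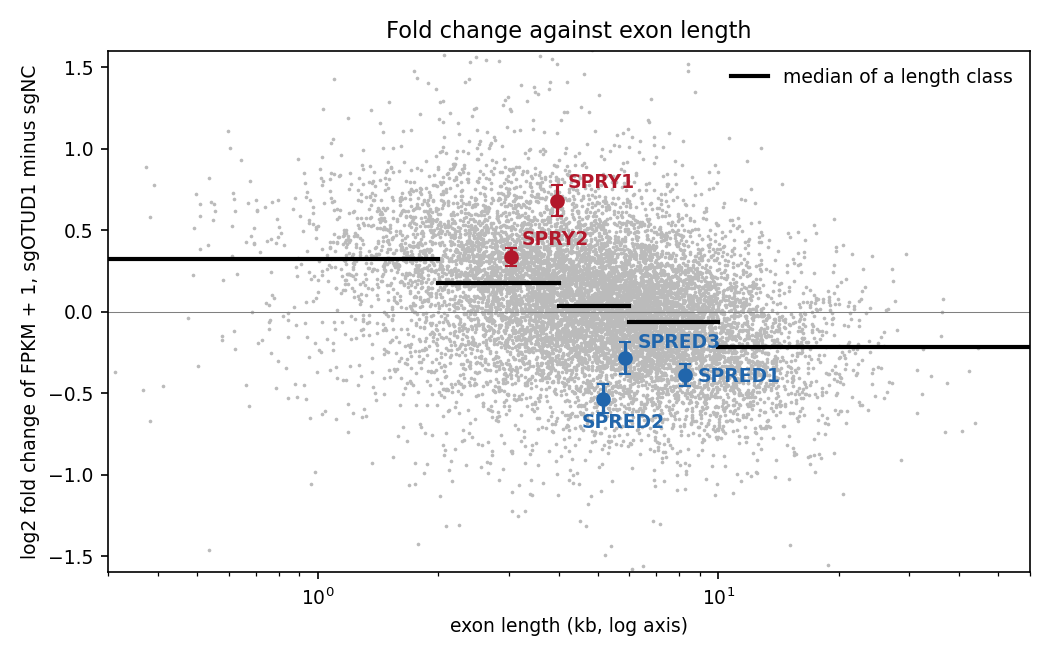
Log2 fold change of FPKM + 1 against exon length (kb, log axis) for 11372 tested nuclear protein-coding genes (grey; 28 lie beyond the y axis), with medians of length classes as black bars and the 5 members past the filter with their SE. The 2 Sprouty genes lie above, and the 3 SPRED genes below, the median of their class.

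Scaling moved the centre of all genes and, through the added 1, not every member by the same amount. Over the genes tested, log2 fold change had a median that was 0.031 as deposited, -0.073 with median-ratio rescaling and -0.10 with TPM, and the share of called genes that were higher was, in the same order, 55.9%, 39.7% and 38.2%. Relative to that median, and again in the same order, SPRY2 was at 0.30, 0.29 and 0.33 and SPRED2 at -0.56, -0.58 and -0.64. SPRY1 was at 0.65, 0.66 and 0.84, SPRED1 at -0.42, -0.42 and -0.53, and SPRED3 at -0.32, -0.26 and -0.54. All 5 members thus lay farther from the median with TPM than as deposited. Both rescalings multiply a library by 1 number, so by construction only the added 1 lets a member move against the median. With a pseudocount of 0.1 on deposited FPKM, distances from the median were also larger. They were 0.90 for SPRY1, 0.35 for SPRY2, -0.56 for SPRED1, -0.66 for SPRED2 and -0.74 for SPRED3. None of the 5 members past the filter changed direction under any alternative run.

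**Figure D4:**
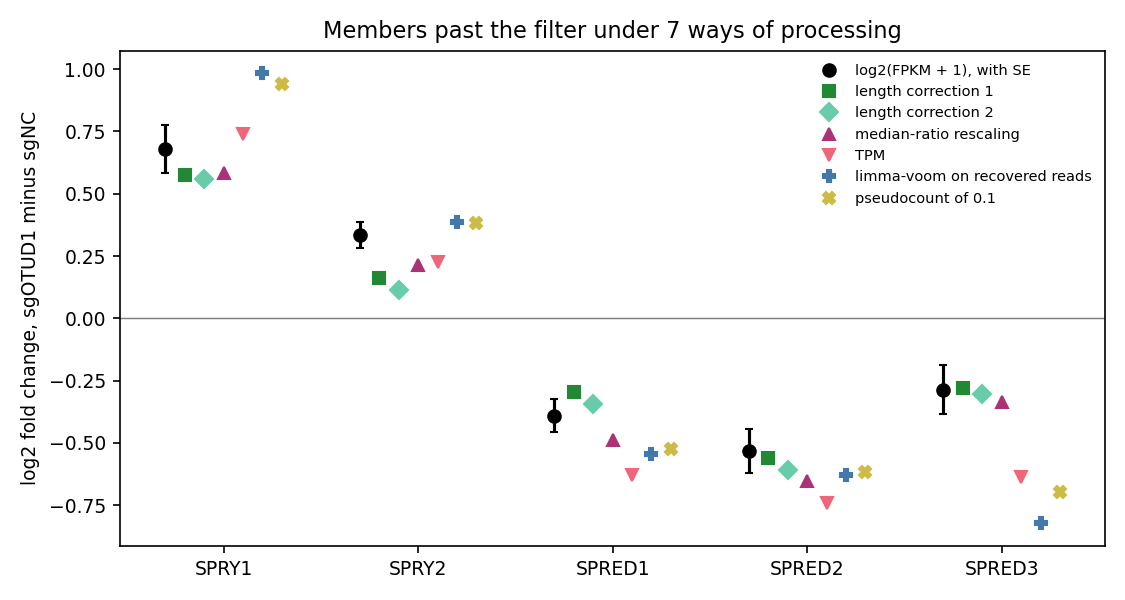
Log2 fold change of the 5 members past the filter under 7 ways of processing, with the SE for log2(FPKM + 1). SPRY1 and SPRY2 stay above 0 and the SPRED genes below 0; SPRY2 comes nearest to 0, at 0.12 with length correction 2.

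The members' upstream genes were mostly lower or not called. Of 19 tested receptors and adaptors, 9 were lower and 1 higher, with a median log2 fold change of -0.145 against 0.031 for all genes tested. Beside the counts of each list stand the 31.2% called higher and 24.7% called lower over all genes. The EGF receptor EGFR fell from 187 to 93.8 FPKM, ERBB3 from 6.72 to 4.06 FPKM and the FGF receptor FGFR2 from 15.3 to 9.57 FPKM (limma adjusted p from 5.79e-06 to 3.16e-05). The adaptor GRB2 was at 30.9 and 33.7 FPKM, and its change of 0.12 was lost with both length corrections and went to -0.013 and -0.026 with median-ratio rescaling and TPM. GRB2 was also not called without sgNC replicate 1 or without sgOTUD1 replicate 3.

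Of 19 tested genes of the RAS to ERK cascade, 7 were higher and 5 lower, shares near those over all genes. With TPM 3 were higher, with length correction 2 it was 4, and 3 were lower without sgNC replicate 1, sgOTUD1 replicate 2 or sgOTUD1 replicate 3. HRAS rose from 26.2 to 38.1 FPKM (log2 fold change 0.52, limma adjusted p = 0.00281), but was at 0.16 and not called with length correction 2. RRAS2 (18.0 to 23.7 FPKM), the kinase MAP2K1 (24.8 to 29.3 FPKM) and the phosphatase subunit PPP1CB (30.5 to 36.9 FPKM) were also higher, the last 2 not called with TPM and MAP2K1 not with length correction 2. IQGAP1, a scaffold, fell from 25.9 to 19.2 FPKM, the RAF regulator SHOC2 from 7.57 to 5.84 FPKM and ARAF from 14.2 to 12.7 FPKM. The cascade's median was 0.045.

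Of 9 RAS inactivators, 5 fell and 0 rose (median -0.34), with 4 lower after length correction 1 and 7 lower with either rescaling. RASAL2 (6.11 to 3.66 FPKM) and DAB2IP (18.1 to 12.5 FPKM), which speed GTP hydrolysis by RAS, fell. NF1, the partner of SPRED proteins, was at 5.06 and 3.47 FPKM (log2 fold change -0.44, limma adjusted p = 0.00211). It was not called with length correction 1 (-0.12, limma adjusted p = 0.162) or length correction 2 (-0.029, 0.755).

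Of 19 genes whose products bind, modify or degrade Sprouty or SPRED proteins, NF1 among them, 7 were higher and 7 lower, and 5 were higher and 10 lower with either rescaling. CBL, the ligase that binds SPRY2, fell from 8.75 to 5.23 FPKM and the ligase NEDD4 from 9.29 to 7.26 FPKM. The ligase SIAH2 rose from 19.1 to 28.7 FPKM, the kinase MKNK2 from 28.5 to 46.9 FPKM and the phosphatase PPP2CA from 14.3 to 19.0 FPKM. The median was -0.051.

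Among 8 other feedback inhibitors of the pathway, 5 rose and 1 fell (median 0.42). The ERK phosphatases DUSP5 (31.6 to 122 FPKM) and DUSP6 (2.52 to 8.65 FPKM) rose, and so did the EGF receptor inhibitor ERRFI1 (19.4 to 53.0 FPKM). LRIG1, another receptor inhibitor, was at 7.78 and 6.52 FPKM, a call (limma adjusted p = 0.0327) that was lost without a filter, with length correction 1 and without any 1 of the libraries other than sgNC replicate 3. Among 17 tested ERK output genes, which include DUSP4, DUSP5 and DUSP6 again, 13 rose and 2 fell, and the list's median was 0.45. The ligand HBEGF rose from 6.90 to 33.3 FPKM and IER3 from 163 to 386 FPKM, whereas ETV4 fell from 3.56 to 2.64 FPKM and cyclin D1, CCND1, from 42.2 to 37.5 FPKM.

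Of 10 transcription factor genes that act on ERK outputs, 2 rose and 6 fell, and the list's median was -0.24. CIC fell from 19.0, 19.0 and 20.3 FPKM to 10.7, 11.6 and 10.7 FPKM (log2 fold change -0.76, limma adjusted p = 2.58e-05), ETS1 from 17.4 to 12.9 FPKM and ETV6 from 5.55 to 3.38 FPKM. ETS2 rose from 51.4 to 65.1 FPKM and the repressor ETV3 from 6.81 to 10.3 FPKM.

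**Figure D5:**
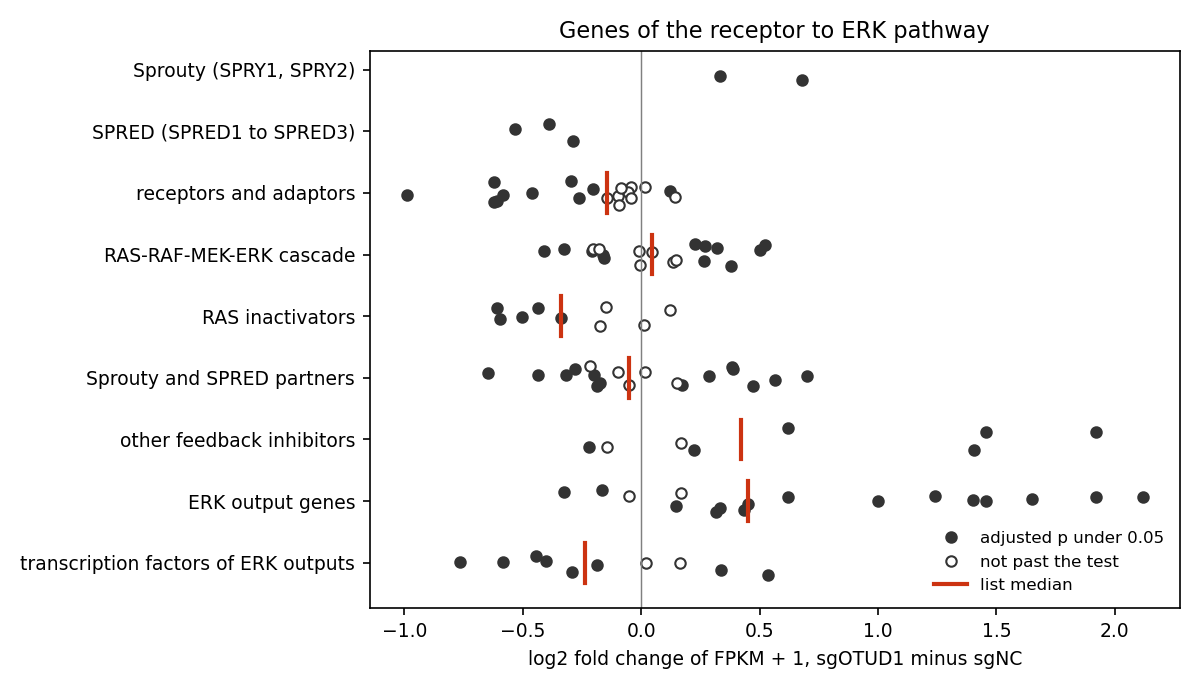
Log2 fold change of FPKM + 1 for the 5 members past the filter and for tested genes of 7 pathway lists; filled points passed a limma adjusted p of 0.05, open points did not, and red bars are list medians. ERK output genes reach 2.12 (HBEGF) and receptors -0.99 (EGFR), while the members lie between -0.53 and 0.68.

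Over the 6 libraries, the profile most like that of SPRY1 among 6598 protein-coding genes of mean FPKM of at least 5 was that of POLG, followed by CBLC and CCDC167 (Pearson's r of 0.998, 0.998 and 0.997 on log2(FPKM + 1)). For SPRY2 these were PYGL, SRRM1 and EMP1, for SPRED1 WASHC5, ABL1 and PPP4R4, for SPRED2 KRT80, ESRP2 and ACTN4, and for SPRED3 JAGN1, FKBP15 and NEDD4, with r from 0.995 to 0.999. The points share the 2 groups, so these values mostly restate a difference between groups and are given as a description.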

How the data were processed

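Per the labels' protocols, total RNA went into NEBNext Ultra libraries. The authors deposited 1 table of FPKM values for 58735 genes, per the file headers. The tools featureCounts 1.5.0-p3 and DESeq2 1.20.0 and build hg38 are named by the submitters' processing notes, with no roles. Neither aligner nor strand setting is stated there. Every gene identifier matched GENCODE 29. FPKM times union exon length gave whole reads for 100% of values above 0 (tolerance 0.001 reads).

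Analysis used limma 3.58.1 in R 4.3.3 (trend and robust options, group as the only term, Benjamini-Hochberg adjustment over all genes tested) on log2(FPKM + 1), for genes of mean FPKM of at least 0.5, with Python 3.11.15 and SciPy 1.17.1. Fold changes on this scale understate those of low genes. Members below the filter came from a fit of all genes above 0 in any library. Rescalings kept the genes tested. Both length corrections removed a natural spline in log2 exon length, with 4 degrees of freedom, fitted per library to nuclear protein-coding genes, from the log2 values (correction 1) or, fitted at mean FPKM of at least 5, from FPKM before the pseudocount (correction 2). Replicate pairs differed beyond sampling noise (chi-square per gene 2.02 to 3.52 within groups). Alternatives were a replicate block, leaving out each library, no filter, a filter at 5 FPKM, a pseudocount of 0.1, no trend or robust options, median-ratio rescaling, TPM, both length corrections and limma-voom on recovered reads. Limma-voom took the FPKM divisors as library sizes, so it kept the deposited scaling.

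Members, lists and alternatives were chosen with earlier results of these data known. Named were all members, OTUD1, per list up to 3 rising and 3 falling genes with the smallest adjusted p, NF1, CBL, CIC and HRAS, and the 3 genes most like each member. An item that this rule names is not reported here.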

Additional observations from a re-analysis of the deposited data

How the results depend on the processing

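SPRY1, SPRED1 and SPRED2 kept their direction and their call under every alternative that gave them a value. SPRY2 was not called with length correction 2 (0.12). SPRED3 was not called with a pseudocount of 0.1 (-0.70) or with the replicate block (-0.29, limma adjusted p = 0.0883), nor SPRY4 with the replicate block (0.29, limma adjusted p = 0.0943), the log2 fold change being the main one by construction. Same-numbered libraries did not deviate together over the genes tested (correlations of -0.0513 to 0.00155), which cannot exclude that the numbers pair libraries. The block ended no other call among the members and OTUD1. SPRY3, not called otherwise, went to 0.11 and was called (limma adjusted p = 0.0129) with length correction 1, which removes the trend of expressed genes from values near 0. OTUD1 was at 0.071 with median-ratio rescaling, 0.061 with TPM, 0.022 with length correction 1 and -0.047 with length correction 2, none called. Leaving out each library gave SPRED3 -0.31 to -0.25, SPRY4 0.26 to 0.30 and OTUD1 0.17 to 0.24. GRB2 went to -0.013 with median-ratio rescaling and -0.026 with TPM. Genes called numbered 8192 in the main test, 5220 at a mean FPKM of at least 5 (7047 tested, 66.3% of calls higher) and 7138 to 8875 in all other alternatives; 40.9% of calls were higher with length correction 2 and 48.4% with length correction 1. Except for the construction named, the cause of these changes was not tested. Depth limits SPRY3 and SPRY4, at 3 to 34 reads per library.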
